A study of Mus musculus with 16 samples.

Results

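Long noncoding RNA (lncRNA) genes of mouse liver were followed across furan treatment and time in formalin. The set was defined by annotation and detection: a gene had a symbol, its array probe carried a RefSeq noncoding transcript accession, RefSeq classed it as lncRNA, and at least 1 of its probes stood well above background in Cy5, by the scanner software's flag, on 3 or more arrays in any group. Of 786 such genes on the array, 294 passed and 492 did not, and the 294 stood among 22024 genes and unnamed transcripts that passed the same filter and were tested. At the limit of detection, 39 of the 294 reached exactly 3 arrays in their best group, whereas 32 of the genes left out reached 2, 70 reached 1 and 390 reached none. By name, 155 of the 294 carried a Riken clone symbol, 58 a predicted-gene (Gm) symbol, 23 an antisense or overlapping-transcript symbol, 11 a small RNA host symbol, and 47 a name of their own.

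Female B6C3F1 mice, 5 to 6 weeks old at purchase and acclimatized for at least 7 days, received corn oil alone or furan at 8 mg/kg body weight in corn oil by gavage for 21 days, and livers were taken 4 h after the last dose. Furan is a small cyclic ether that the liver turns into a reactive dialdehyde. The 4 groups were control or furan livers kept in formalin for 18 h, and control or furan livers kept in formalin for 3 weeks, all then embedded in paraffin. RNA came from 1 section of 10 µm at 18 h and from 2 such sections at 3 weeks, so time in formalin and section number cannot be told apart, and its integrity number was 1.3 to 2.4 throughout. Each array compared Cy5-labelled cDNA of a liver with a Cy3-labelled pool of all samples. Groups held controls 2, 3, 4 and 6 and furan samples 41 to 44 at 18 h, and controls 2, 4 and 6 and furan samples 41 to 44 at 3 weeks, where control 2 was the mean of arrays 2.1 and 2.2.

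An lncRNA gene is transcribed into a long RNA with no known protein product. Some of these RNAs build nuclear structures, such as Neat1 in paraspeckles, some silence genes in cis, such as Xist on the inactive X chromosome and Kcnq1ot1 or Airn at imprinted loci, and others are mainly carriers of microRNAs or small nucleolar RNAs (snoRNAs) that are cut out of them. A microRNA pairs with its targets mainly through its seed, bases 2 to 8.

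The microRNAs inside the host genes that the results turn on are given first, from RefSeq on GRCm38.p6, 5′ to 3′ with the seed in capitals. Mir22hg holds miR-22, the RefSeq model of Mir17hg spans miR-19b-1 and miR-92a-1 of the miR-17-92 cluster, Dleu2 holds miR-15a and miR-16-1, and 6430411K18Rik spans miR-127 and miR-433 in the imprinted Dlk1-Dio3 region.
miR-22-5p (chr11:75463734-75463755, + strand): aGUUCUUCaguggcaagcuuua
miR-22-3p (chr11:75463772-75463793, + strand): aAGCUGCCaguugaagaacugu
miR-19b-3p (chr14:115044358-115044380, + strand): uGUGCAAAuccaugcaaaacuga
miR-92a-3p (chr14:115044476-115044496, + strand): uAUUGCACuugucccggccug
miR-15a-5p (chr14:61632075-61632096, - strand): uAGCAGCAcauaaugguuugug
miR-16-5p (chr14:61631936-61631957, - strand): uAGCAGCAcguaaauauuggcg
miR-127-3p (chr12:109592888-109592909, + strand): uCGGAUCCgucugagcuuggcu
miR-433-3p (chr12:109591781-109591802, + strand): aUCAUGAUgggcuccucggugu
Of these, miR-15a-5p and miR-16-5p share a seed and the others each have a seed of their own. Probes on the array measured the host transcripts, so the values below are levels of the hosts, and the mature microRNAs were not analysed here.

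Promoters of 4 lncRNA genes that differed between furan and control livers at 18 h follow, from 250 bases before to 50 bases after the RefSeq start on GRCm38.p6 and on the gene's strand. Capitals mark matches on either strand to the TATA box (TATAAA), the box bound by NF-Y (CCAAT), the GC box (GGGCGG), the E-box (CACGTG), the cyclic AMP response element (TGACGTCA), the core of the antioxidant response element (TGACNNNGC) and the NRF1 motif, and matches may overlap.
Mir22hg (chr11:75461289-75461588, + strand): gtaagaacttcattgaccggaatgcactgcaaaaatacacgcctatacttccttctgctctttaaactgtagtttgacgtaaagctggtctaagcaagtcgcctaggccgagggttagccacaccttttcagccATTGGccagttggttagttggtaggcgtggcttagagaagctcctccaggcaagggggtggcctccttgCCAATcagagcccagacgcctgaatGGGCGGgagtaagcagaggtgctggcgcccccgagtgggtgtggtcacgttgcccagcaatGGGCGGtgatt
Tug1 (chr11:3648765-3649064, - strand): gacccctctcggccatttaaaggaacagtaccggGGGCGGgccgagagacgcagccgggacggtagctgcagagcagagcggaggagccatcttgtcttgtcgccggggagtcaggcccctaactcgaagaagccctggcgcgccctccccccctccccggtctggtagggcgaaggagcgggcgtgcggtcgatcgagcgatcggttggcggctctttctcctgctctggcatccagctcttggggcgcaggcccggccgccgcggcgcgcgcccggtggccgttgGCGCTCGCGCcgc
Xist (chrX:103483184-103483483, - strand): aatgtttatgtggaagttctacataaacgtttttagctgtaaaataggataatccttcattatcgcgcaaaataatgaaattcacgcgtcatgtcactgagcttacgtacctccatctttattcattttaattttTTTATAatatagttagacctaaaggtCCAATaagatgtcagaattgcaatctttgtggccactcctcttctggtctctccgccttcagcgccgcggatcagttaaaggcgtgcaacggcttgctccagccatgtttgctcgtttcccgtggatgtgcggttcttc
Nron (chr2:33805566-33805865, + strand): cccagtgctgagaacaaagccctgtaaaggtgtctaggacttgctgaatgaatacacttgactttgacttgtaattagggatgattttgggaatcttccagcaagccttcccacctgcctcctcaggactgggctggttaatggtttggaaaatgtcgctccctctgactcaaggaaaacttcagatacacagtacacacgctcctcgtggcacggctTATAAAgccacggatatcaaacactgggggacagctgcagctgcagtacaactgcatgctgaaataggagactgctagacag
The Mir22hg window held CCAAT and GGGCGG matches and 54.7% G and C. Tug1 had the highest G and C content of the 4, at 71.3%, with GGGCGG and NRF1 motif matches. Xist was lowest, at 41.3%, with CCAAT and TATAAA matches. Nron, which was higher with furan where the brightest probes of the other 3 were lower, held a TATAAA match only. A promoter was found for 236 of the 294 genes.

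The number of lncRNA genes detected on an array fell with time in formalin. Control arrays at 18 h had between 207 and 239 of the 294 genes well above background, and furan arrays at 18 h had between 268 and 278. At 3 weeks the control arrays had between 147 and 177 and the furan arrays between 161 and 185. The lowest 18 h array therefore lay above the highest 3-week array, and at 18 h all 4 furan arrays lay above all 4 control arrays, as the plot of detected genes shows. Over all probes the share well above background ran the same way, between 44.3% and 50.1% in 18 h controls, 51.9% and 55.2% in 18 h furan livers, 32.3% and 36.7% in 3-week controls, and 35.9% and 41.4% in 3-week furan livers. In all 4 groups 127 lncRNA genes passed the detection rule, and 66 passed in a single group, of which 53 did so only in furan livers at 18 h. A gene that passed only where it was bright had to differ, so counts over the 294 genes are descriptions beside the same counts over all genes tested.

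**Figure D1:**
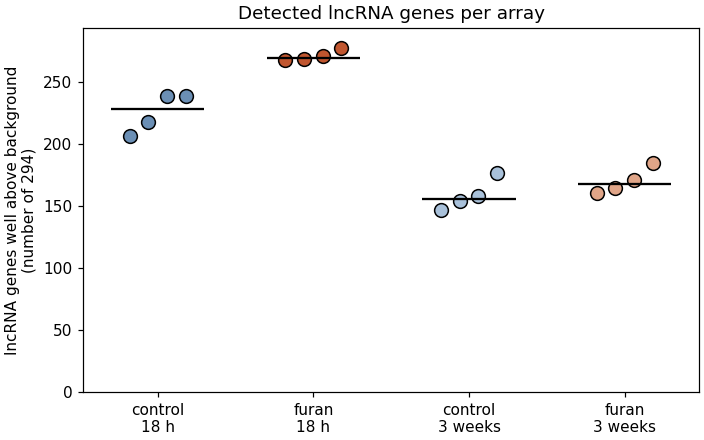
Number of the 294 lncRNA genes well above background on each array (points) in each group, with the group median as a line. Arrays at 18 h lie between 207 and 278 genes and arrays at 3 weeks between 147 and 185.

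All 12 hepatocyte markers (among them Alb, Apoa1 and Cyp2e1) were well above background on all 16 arrays, so the tissue matched its label. With furan at 18 h, 7 of the 12 were lower and 1 was higher, with a median log2 difference of -0.47. Over all genes tested 26.6% were lower and 21.9% higher, with a median of -0.04. Other types moved too: 4 of 7 endothelial markers were lower and 1 higher, and 3 of 4 erythroid markers were lower, with medians of -0.36 and -0.86. Kupffer cell markers gave 3 of 9 lower, stellate or fibroblast markers 3 of 7 lower and 1 higher, and recruited macrophage or monocyte markers 2 of 5 lower and 1 higher. Between formalin times, 9 of the 12 hepatocyte markers were lower at 3 weeks in control livers, with a median of -0.78. In furan livers 8 were lower and 1 was higher, with a median of -0.94. Over all genes tested 28.7% were lower and 32.0% higher in controls, and 30.4% and 38.7% in furan livers. Medians over all genes were 0.06 and 0.09. Markers of recruited macrophages or monocytes went the other way, with 3 of 5 higher and 1 lower in controls, at a median of 1.08. In furan livers 4 of 5 were higher, at a median of 1.56. Of these 5, only 3 were well above background on all 16 arrays, with Spp1 on 6 and Mmp12 on 12. With so few genes nothing is read from them about the cell type. In a bulk sample, fewer cells of a type and less RNA per cell cannot be told apart, and the part of cell content in the results below was not tested.

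Furan against control at 18 h was the first comparison, 4 livers against 4. Of the 294 lncRNA genes, 104 passed limma's test (adjusted p under 0.05), with 29 of them higher and 75 lower in furan livers. Over all genes tested 48.5% were called, 21.9% higher and 26.6% lower, against 35.4%, 9.86% and 25.5% of the lncRNA genes. Groups did not overlap for 77 lncRNA genes, or 26.2%, beside 40.4% of all genes, and an unadjusted p under 0.05 was reached by 40.5% and 55.7%. The share lower was near that of all genes, and the share higher was less than that of all genes. The median log2 difference was -0.14 over lncRNA genes and -0.04 over all genes. lncRNA genes were dimmer than the rest, with 127 of 294 in the dimmest quartile of mean brightness and 30 in the brightest. Within the second brightest quartile 3 of 61 were higher and 29 lower, or 4.92% and 47.5%, where all genes of that quartile gave 22.8% and 38.6%. In the brightest quartile 1 of 30 was higher and 15 were lower, or 3.33% and 50%, where all genes gave 29.3% and 33.1%. In the dimmest quartile 17 of 127 were higher and 10 lower, against 18.2% and 8.95% of all genes.

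**Figure D2:**
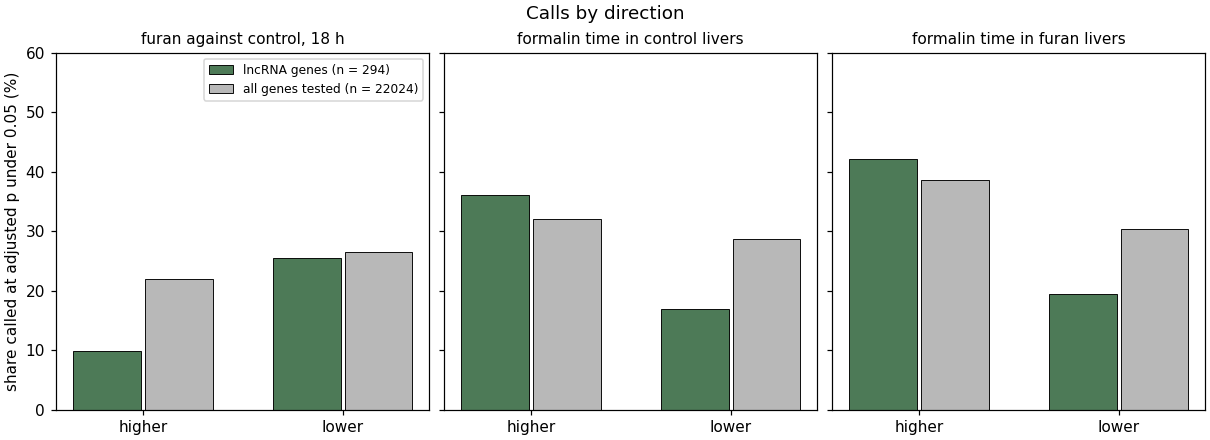
Share of the 294 lncRNA genes (green) and of all 22024 genes tested (grey) called higher or lower at a limma adjusted p under 0.05 in 3 comparisons. With furan at 18 h, 9.86% of lncRNA genes were higher against 21.9% of all genes. Over time in formalin more lncRNA genes were higher than lower, in control and in furan livers.

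How many genes counted as higher or lower depended on the scaling. Of the lncRNA genes called at 18 h, 27.9% were higher in the main analysis, 22.6% with no background subtraction, 39.5% by Agilent's own log ratios and 41.1% in the authors' deposited values. With each array centred on its median in place of loess, 53 were higher and 18 lower, or 74.6%. The same shares over all genes called were 45.2%, 39.3%, 53.9%, 57.4% and 82.3%. Median centring moved the median difference of all genes up by 0.17, and the lncRNA share lay under that of all genes in each of the 5 scalings. Within slides, slide 1 alone gave 19 higher and 55 lower lncRNA genes, and slide 2 alone gave 18 higher and 24 lower. A direction below is therefore relative to the bulk of genes, and genes whose sign turned under another scaling are named.

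**Figure D3:**
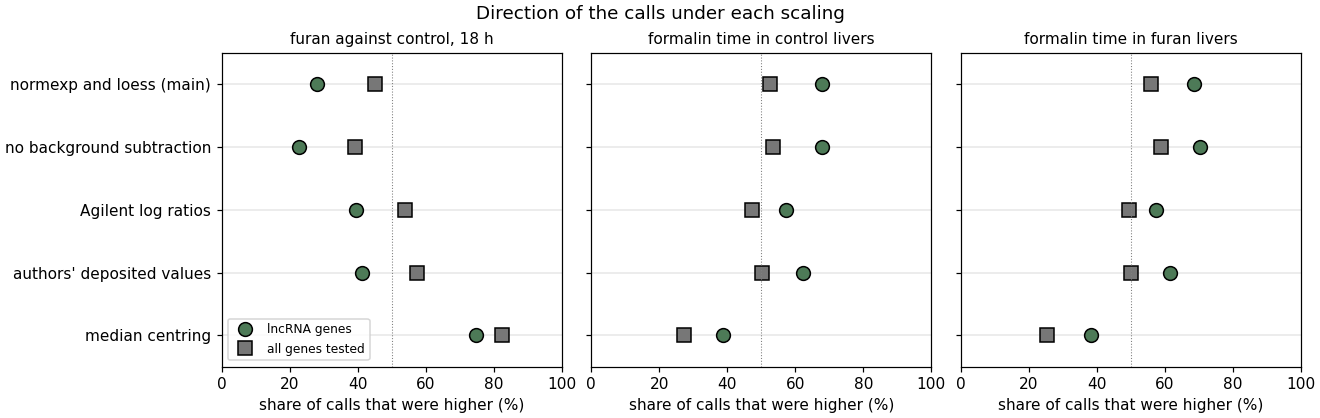
Share of called genes that were higher, for lncRNA genes (circles) and all genes tested (squares), under 5 scalings in 3 comparisons. Circles lie to the left of squares for furan at 18 h and to the right for time in formalin, while median centring moves both across 50%.

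Among lncRNAs of nuclear architecture, 7 genes were measured and 4 were lower with furan at 18 h, with none higher; their median log2 difference was -0.26, against -0.04 for all genes. Counts in this and the following lists stand beside 21.9% of all genes higher and 26.6% lower, and with so few genes in a list nothing is read from them about the list. Tug1, a conserved RNA that stays largely in the nucleus, had log2 ratios to the pool of 0.61, 0.67, 1.01 and 0.55 in controls and 0.08, 0.12, -0.16 and -0.01 in furan livers. Controls all lay above furan livers, and the log2 difference was -0.70 (SE 0.0928, adjusted p = 0.000256). The 2 kept probes of Tug1 disagreed: the dimmer was higher with furan, by 0.31 (adjusted p = 0.0446), so the direction for the gene is not settled. Norad, which binds PUMILIO proteins and is needed for stable chromosome numbers, had 0.60, 0.50, 0.56 and 0.32 in controls and -0.05, -0.11, -0.11 and -0.13 in furan livers. Its groups did not overlap, the log2 difference was -0.60 (SE 0.0852, adjusted p = 0.000403), and its 3 other kept probes were also lower, at between -0.45 and -0.26. Under median centring it was at -0.08 and did not pass. Neat1, the scaffold of paraspeckles, was at 0.27, 0.11, 0.41 and 0.15 in controls and -0.01, -0.06, -0.05 and 0.01 in furan livers. It was lower by a log2 difference of -0.26 (SE 0.0889, adjusted p = 0.0333), but was at 0.27 under median centring (adjusted p = 0.0856). The call of Neat1 was kept in only 11 of 24 other settings. Malat1, an abundant RNA of nuclear speckles, had -0.48, -0.75, -0.66 and -0.35 in controls and -0.98, -0.63, -0.44 and -0.29 in furan livers. These ranges overlapped, with a log2 difference of -0.02 (SE 0.0994, adjusted p = 0.869), though median centring put it at 0.37 (adjusted p = 0.0309). Firre, an X-linked RNA that contacts several chromosomes, was lower by -0.35 (adjusted p = 0.00710). Meg3 and Dancr did not pass the test, at -0.19 and 0.12.

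Of all 12654 coding genes tested, 27.9% were higher and 24% lower with furan at 18 h, and the coding lists below stand beside those shares. Of 16 measured coding genes for paraspeckle proteins, 9 were higher and 3 lower. Ewsr1 was higher by 0.60 (SE 0.0836) and Rbm14 by 0.56 (SE 0.0770), while Hnrnpk was lower by -0.88 (SE 0.0803). The median of these coding genes was 0.29, and with so few genes nothing is read from it about the list.

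The list of imprinted lncRNAs gave 6 measured genes, of which 2 were higher and 2 lower at 18 h. It leaves out 6430411K18Rik, which did not pass at 18 h, and Dio3os, which was lower by -0.26 (adjusted p = 0.0230). Kcnq1ot1, the paternally expressed RNA that silences a gene cluster around Kcnq1, had 0.05, 0.16, -0.05 and -0.09 in controls and 0.29, 0.58, 0.50 and 0.78 in furan livers. All furan livers lay above all controls, with a log2 difference of 0.52 (SE 0.112, adjusted p = 0.00374), and a second probe was higher by 0.36. Peg13, an imprinted RNA within Trappc9, was higher by 0.25 (SE 0.0830, adjusted p = 0.0311) and did not pass with no background subtraction, at 0.16. Its call was kept in 13 of 24 other settings. Igf2os, the antisense transcript of the fetal growth factor gene Igf2, fell by 1.03 on the log2 scale (SE 0.0916, adjusted p = 3.85e-05). Its values were 1.1, 1.24, 1.24 and 0.83 in controls and 0.13, 0.18, 0.09 and -0.13 in furan livers, with a wide gap between the groups. Airn, which overlaps and silences Igf2r, was lower by -0.37 (SE 0.0984, adjusted p = 0.0116), with -0.58 on slide 1 alone and -0.15 on slide 2 alone. It did not pass under median centring, at -0.03, or in the authors' deposited values, at -0.20. Igf2r itself was lower by -0.22 (SE 0.0836, adjusted p = 0.0498). Meg3 and Mirg of the Dlk1-Dio3 region did not pass, at -0.19 and 0.21. Since the strand of the labelled cDNA is not in the sources used here, signals of antisense transcripts and their partners cannot be told apart.

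Xist, the RNA that coats the inactive X chromosome in females, was measured at 0.32, 0.21, 0.12 and 0.21 in controls and -0.35, -0.44, -0.44 and -0.43 in furan livers. Controls and furan livers formed tight, separate groups, and the log2 difference was -0.63 (SE 0.0788, adjusted p = 0.000190), or -0.58 by its next brightest probe. Under median centring the difference was -0.13 and did not pass. Ftx, an X-linked lncRNA gene near Xist, was at 0.19 (adjusted p = 0.0967). Among 21 measured coding genes for proteins of X inactivation and imprinting, 9 were higher and 5 lower: Spen, a repressor that Xist recruits, was higher by 0.81, Ciz1, which anchors Xist to the chromosome, was lower by -0.89, and Trim28 was lower by -0.61.

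By position in RefSeq, 11 lncRNA genes held a microRNA, of which 1 was higher and 4 were lower at 18 h. The list of named microRNA hosts overlaps these only in part and gave 2 higher and 1 lower of 7 measured. Mir17hg, whose miR-19b and miR-92a are shown above, had -0.41, -0.23, -0.47 and -0.38 in controls and 0.47, 0.33, 0.35 and 0.54 in furan livers. It was well above background on 1 of 4 control arrays and on 4 of 4 furan arrays, and was higher by 0.80 (SE 0.0894, adjusted p = 0.000104). Mirt2, a transcript named from infarcted heart that stands in this list although its RefSeq model holds no microRNA, had -0.27, -0.20, -0.42 and 0.01 in controls and 0.49, 0.47, 0.51 and 0.79 in furan livers. Again the groups did not overlap, with a log2 difference of 0.79 (SE 0.10, adjusted p = 0.000211), and again 1 control array was well above background. Mir17hg and Mirt2 passed the detection rule only through furan livers, so a difference at 18 h was built into their selection and these values are a description. Mir22hg, the host of the miR-22 pair shown above, went the other way, from 0.72, 0.48, 0.55 and 0.73 in controls to -0.42, -0.37, -0.43 and -0.19 in furan livers. Its log2 difference of -0.97 (SE 0.0835) had the smallest adjusted p of any lncRNA gene in this comparison, 3.39e-05. Dleu2, with the shared-seed microRNAs miR-15a and miR-16-1, did not pass, at 0.21 (adjusted p = 0.153).

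**Figure D4:**
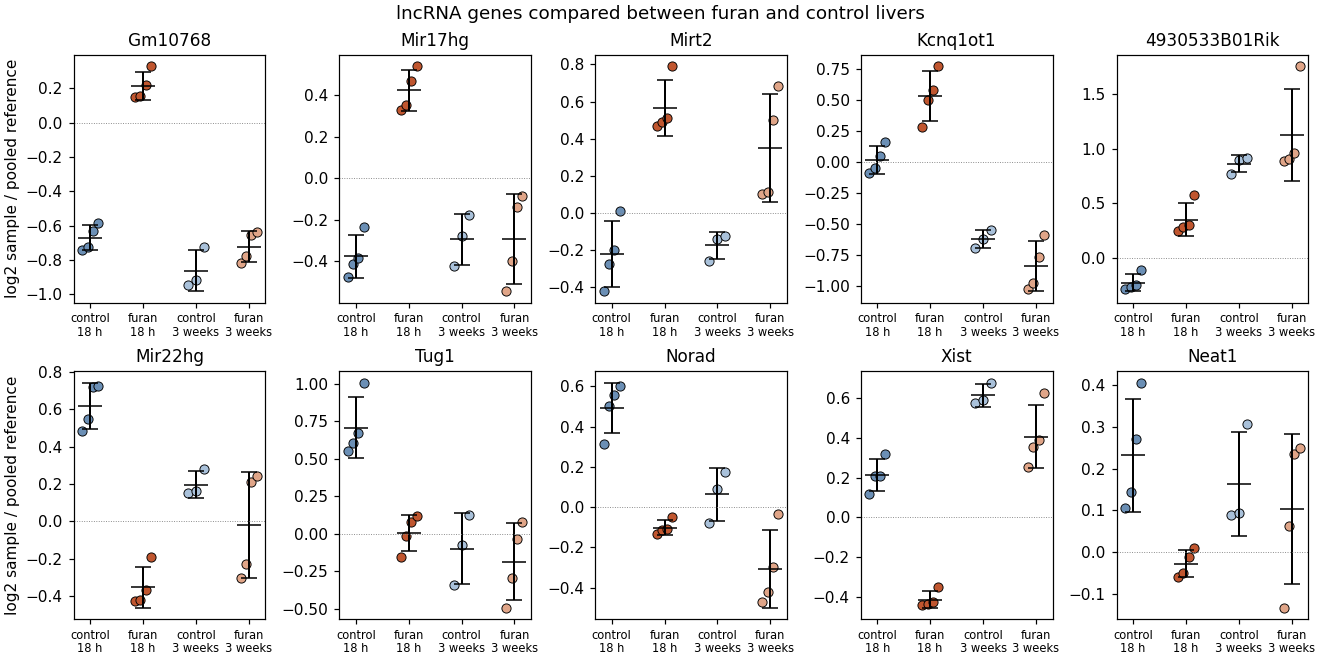
log2 ratio of each liver to the pooled reference for 10 lncRNA genes (points, one per sample), with mean and SD as bars, n = 4 per group and 3 for controls at 3 weeks. The upper 5 genes are higher in furan livers at 18 h and the lower 5 are lower, and at 3 weeks the furan and control values lie closer together for most.

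A list of host genes of snoRNAs, whose spliced RNAs are usually short-lived, gave 11 measured genes, of which 2 were higher, 1 was lower and 8 did not pass, with differences between -0.26 and 0.35. By position, 15 lncRNA genes held a snoRNA, with 3 higher and 1 lower. Snhg18 was higher by 0.35 (SE 0.0805, adjusted p = 0.00514). Snhg7 was called higher with furan (adjusted p = 0.0135), but no control array had it well above background and no fold is given. Snhg6 was lower by -0.24 (adjusted p = 0.0324), but was at 0.31 under median centring, without passing. Its call was kept in only 11 of 24 other settings. Snhg1, Snhg12 and Snhg3 were at -0.17, -0.26 and -0.03. Many spliced snoRNA host transcripts are degraded by nonsense-mediated decay: of 18 measured coding genes for its factors, 9 were higher and 4 lower, with Smg5 higher by 0.91, Gspt1 higher by 0.90 and Eif4a3 lower by -0.64.

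In the list linked to p53, 3 of 7 genes were lower and none was higher, and those 3 were Tug1, by the brighter of its disagreeing probes, Norad and Neat1, already described. Pvt1, which neighbours Myc, did not pass, at 0.18. Of 5 genes listed for liver and metabolism, 2 were higher and 1 lower. Gm10768 had -0.74, -0.72, -0.58 and -0.63 in controls and 0.33, 0.16, 0.22 and 0.15 in furan livers. It had the largest rise of the lncRNA genes, 0.88 (SE 0.0817, adjusted p = 4.40e-05), on slides 1 and 2 alike at 0.90 and 0.87. Mirt2, also on this list, is given above. 1810053B23Rik was lower by -0.39 (adjusted p = 0.0220) with overlapping groups, and Hnf4aos, antisense to the hepatocyte regulator Hnf4a, was at 0.17 (adjusted p = 0.165). The call of 1810053B23Rik was kept in 15 of 25 other settings.

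Outside the lists, Lockd, an RNA made next to the cell cycle inhibitor gene Cdkn1b, had -0.20, -0.25, 0.02 and -0.23 in controls and 0.59, 0.73, 0.28 and 0.69 in furan livers. No control array was well above background for it, and it was at least 1.54-fold higher with furan (adjusted p = 0.000423). Here "at least" sets the furan mean against the lowest detectable signal of the control arrays or the probe's own signal, whichever was higher. It is computed within the Cy5 channel and so is open to dye bias, and it is left out where it exceeded the fitted fold of the ratio to the pool. Nron, an RNA that restrains the transcription factor NFAT, likewise had no control array well above background and was at least 1.35-fold higher (adjusted p = 0.000271). Of the livers compared here, only those given furan could bring Lockd and Nron into the set, so their values are a description. Other rises among the 10 largest were 4930533B01Rik at 0.58 (SE 0.0949), 9330133O14Rik at 0.52 (SE 0.129), Gm10638 at 0.49 (SE 0.0883), and Gm16287, at least 1.15-fold higher. The second kept probe of 9330133O14Rik, nearly as bright, was at 0.11 and did not pass (adjusted p = 0.476), so that rise rests on the probe. The largest fall was that of 2810410L24Rik, from 1.01, 0.66, 0.18 and 0.22 in controls to -0.49, -0.76, -0.45 and -1.07 in furan livers. Controls were spread but did not overlap with furan livers, and the log2 difference was -1.21 (SE 0.198, adjusted p = 0.000842); its second, dimmer probe was at -0.01. B930025P03Rik, Gm15348 and 4933439C10Rik were lower by -1.02 (SE 0.117), -0.99 (SE 0.113) and -0.89 (SE 0.105). Lppos, which overlaps Lpp on the other strand, was lower by -0.84 (SE 0.115), and Lpp by -0.33 (SE 0.0928). Gm13375 was lower by -0.66 (SE 0.112), and Cerox1, an RNA tied to mitochondrial complex I, by -0.64 (SE 0.142); for Cerox1 the difference was -0.96 on slide 1 alone and -0.33 on slide 2 alone.

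Promoter letters were counted for the called genes as a description. TATAAA was in 10 of 23 promoters of genes higher at 18 h, or 43.5%, in 7 of 72 promoters of genes lower, or 9.72%, and in 13.6% of all 32851 promoters. CACGTG was in none of the 23 and in 9 of the 72, or 12.5%, against 7.15% of all promoters. TGACNNNGC was in 6 of the 23, or 26.1%, and 9 of the 72, or 12.5%, against 12.4%. CCAAT was in 39.1%, 40.3% and 37.4%, and GGGCGG in 34.8%, 43.1% and 35.7%, in the same order. TGACGTCA was in 4.35%, 2.78% and 1.79%, and the NRF1 motif in 0.0%, 5.56% and 6.23%. Median G and C content was 48.0% for the genes higher, 54.5% for those lower and 52.7% for all.

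At 3 weeks in formalin the furan comparison, 4 livers against 3, called 1 lncRNA gene of 294, beside 0.159% of all genes in either direction and 0.0454% called lower. That gene was 2810410L24Rik, at 1.30, 0.86 and 1.59 in controls and 0.02, 0.25, -0.14 and 0.05 in furan livers. Its groups did not overlap, with a log2 difference of -1.20 (SE 0.182, adjusted p = 0.0444), the same size as at 18 h. The call was lost when any liver but control 4 was left out, with adjusted p between 0.0962 and 0.248, and its second probe was at -0.11. The next smallest p-values did not pass. Among those, the furan mean of Mirt2 lay at least 1.39-fold above that of controls in these samples, a description since the gene did not pass (adjusted p = 0.140). Gm10638 was at 0.62 (adjusted p = 0.169) and Hnf4aos at 0.51 (adjusted p = 0.189). Xist was at -0.21, Norad at -0.37, Tug1 at -0.09, Mir22hg at -0.22 and Malat1 at 0.12, with adjusted p between 0.273 and 0.865. Without control 4 the count was 11 lncRNA genes, all lower. Of the 104 genes called at 18 h, 69 had the same sign at 3 weeks. No test was made of this count, and no count over all genes stands beside it.

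The furan difference itself differed between the formalin times for 21 lncRNA genes, 12 with a more positive value at 3 weeks and 9 with a more negative one in the main analysis, which is 7.14% beside 12.8% of all genes (4.08% beside 7.52% and 3.06% beside 5.32% in these directions). For 16 of the 21 the furan difference was nearer to 0, or opposite, at 3 weeks, a count that includes genes at background there. No count over all genes stands beside it, so nothing is read from it about lncRNA genes. Mir22hg went from -0.97 at 18 h to -0.22 at 3 weeks, a change of 0.75 (SE 0.152, adjusted p = 0.00589). At 3 weeks its controls were at 0.28, 0.16 and 0.15 and its furan livers at -0.30, -0.23, 0.24 and 0.21, so that the groups overlapped. Mir17hg and Kcnq1ot1 were also among the 21, but no 3-week array had them well above background, so a furan difference at 3 weeks could not be measured for them. Gm10768 went from 0.88 to 0.14 (change -0.74, SE 0.125, adjusted p = 0.00209), although it was well above background on every array. A930005H10Rik went from -0.44 to 0.40 (change 0.84, SE 0.160, adjusted p = 0.00396), but its 3-week difference by itself did not pass. Igf2os went from -1.03 to -0.14 (change 0.89, SE 0.227, adjusted p = 0.0182), with 2 control arrays and 1 furan array well above background at 3 weeks. The split was not stable: it was 32 more positive and 8 more negative with no background subtraction, 5 and 8 with the scanner's own log ratios, 12 and 14 by the values the authors deposited, and 4 and 15 after median centring. Within a slide no lncRNA gene passed, though 59 and 41 had an unadjusted p under 0.05 on slides 1 and 2.

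Between 3 weeks and 18 h in formalin, 156 lncRNA genes differed in control livers, 106 higher and 50 lower at 3 weeks, and 181 in furan livers, 124 higher and 57 lower. As shares these were 53.1% and 61.6%, beside 60.7% and 69.1% of all genes. At like brightness the shares did not all run that way. In the second brightest quartile 78.7% and 83.6% of lncRNA genes were called, beside 69.5% and 77.7% of all genes. In the brightest quartile it was 80% and 73.3%, beside 80.1% and 82.5%, and in the dimmest 37.8% and 44.9%, beside 38.6% and 49.9%. The share called higher was 36.1% in controls and 42.2% in furan livers, beside 32.0% and 38.7% of all genes, and the share called lower was 17.0% and 19.4%, beside 28.7% and 30.4%. Median log2 differences were 0.17 and 0.19 for lncRNA genes and 0.06 and 0.09 for all genes. Median centring turned the majority, to 49 higher and 77 lower in controls and 57 and 92 in furan livers, or 38.9% and 38.3% higher, where all genes called gave 27.2% and 25.4%. Agilent's own log ratios kept the majority, with 93 higher and 69 lower in controls and 96 and 71 in furan livers, or 57.4% and 57.5% higher, where all genes called gave 47.3% and 49.5%. Groups did not overlap for 53.1% of lncRNA genes in controls, beside 60% of all genes, and for 49.3% in furan livers, beside 59.9%. Both time comparisons called 116 lncRNA genes in the same direction and 1 in opposite directions, with no count over all genes beside these. Of 106 lncRNA genes well above background on every control array, 65.1% were higher and 11.3% lower, beside 44.5% and 28.6% of all genes so detected. Of 115 on every furan array, it was 66.1% and 13.9%, beside 49.3% and 28%. Under median centring these lncRNA shares were 21.7% higher and 29.2% lower in controls, and 27% and 36.5% in furan livers.

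The largest rises with formalin time were seen mostly in genes of clone or predicted names, which 155 and 58 of the 294 genes carry. E330020D12Rik, the second brightest lncRNA gene by its probe, was at -2.05, -2.22, -2.22 and -2.34 in 18 h controls and 0.93, 0.30 and 0.55 in 3-week controls. Its log2 difference was 2.80 (SE 0.161, adjusted p = 6.58e-10) in controls and 2.44 (SE 0.149, adjusted p = 1.03e-09) in furan livers, and its second probe was higher by 1.26 and 0.93. Gt(ROSA)26Sor, the ubiquitous locus used for knock-in transgenes, was at -0.59, -0.51, -0.51 and -0.53 in 18 h controls and 0.96, 1.31 and 1.31 at 3 weeks. It was higher by 1.73 (SE 0.108) in controls and 1.85 (SE 0.10) in furan livers, and the gap between the times was far wider than the spread of either group. Gm16287 was not well above background on any 18 h control array and was at least 5.73-fold higher at 3 weeks. 6430411K18Rik, which spans miR-127 and miR-433, was higher at 3 weeks by 2.00 on the log2 scale in controls, where 1 of 4 arrays at 18 h had it well above background. In furan livers it was also called higher (adjusted p = 2.08e-06), but no 18 h furan array had it well above background and no fold is given. 6430411K18Rik thus passed the detection rule only through 3-week livers, and among controls only 3-week livers could bring in Gm16287. The values of both genes are therefore a description. 9330175M20Rik, E530011L22Rik, 2310005E17Rik and 4933412E12Rik were higher by 2.05, 1.73, 1.71 and 1.55 in controls and by 1.77, 1.72, 1.69 and 1.32 in furan livers. Gm16853 was higher by 1.43 and 1.79.

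Falls with formalin time included several genes of the imprinted and snoRNA host lists. Igf2os fell by 1.85 (SE 0.167) in controls and by 0.95 (SE 0.154) in furan livers. Igf2os passed the detection rule only through 18 h livers, so a fall was built into its selection and these sizes are a description. Airn fell by 1.07 (SE 0.108) and by 0.75 (SE 0.10), but its dimmer probe was at 0.29 in controls and higher by 0.39 in furan livers, so its direction rests on the probe. Kcnq1ot1 was called lower in controls and in furan livers (adjusted p = 0.000566 and 6.25e-08), but no 3-week array had it well above background. No fold is given, and only 18 h livers could bring Kcnq1ot1 into the set. A fall was thus built into its selection, and its calls are a description. Peg13 went the other way, higher by 0.45 and 0.38, but was at -0.01 and -0.25 under median centring. In the imprinted list 1 of 6 genes was higher and 3 were lower at either treatment. Over all genes tested 32.0% were higher and 28.7% lower in controls, and 38.7% and 30.4% in furan livers. The snoRNA counts of the next paragraph stand beside the same shares. With so few genes in a list nothing is read from these counts about the lists.

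Of 11 snoRNA hosts, 3 were higher and 3 lower with time in control livers, and 2 were higher and 4 lower in furan livers. Among the 15 genes that hold a snoRNA, these counts were 5 and 4, and 3 and 5. Snhg12 was at -0.01, 0.25, 0.62 and 0.55 in 18 h controls and -0.82, -0.51 and -0.49 at 3 weeks, lower by -0.96 (SE 0.179, adjusted p = 0.000227) in controls and -0.60 (SE 0.166) in furan livers. Snhg3 was on no 3-week control array well above background and was at least 1.87-fold lower there. Snhg16 was higher by 0.68 (SE 0.144) and 0.67 (SE 0.133), and 2410006H16Rik, whose model holds 3 snoRNAs, by 1.51 (SE 0.124) and 1.75 (SE 0.115); Snhg16 was at -0.02 in furan livers under median centring. Other falls were those of Gm15348, by 1.67 and by 1.07, and of Hoxa11os, which no 3-week array had well above background and which was at least 1.75-fold lower in furan livers. Hoxa11os passed the detection rule only through 18 h livers, and among controls only 18 h livers could bring in Snhg3. The folds of both genes are therefore a description.

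Nuclear and X-linked RNAs were mixed. Malat1 was at 0.23 in controls (adjusted p = 0.154) and higher by 0.37 in furan livers (adjusted p = 0.0153), where median centring gave -0.44. Neat1 did not pass, at -0.07 and 0.13. Xist was higher at 3 weeks by 0.40 (SE 0.102, adjusted p = 0.00291) in controls and 0.82 (SE 0.0942, adjusted p = 1.23e-06) in furan livers, but was at -0.13 and 0.12 under median centring. Tug1 was lower by -0.81 (SE 0.150) in controls and at -0.19 in furan livers. Its dimmer probe was at -0.23 in controls (adjusted p = 0.158) and lower by -0.52 in furan livers (adjusted p = 0.00160). Which treatment showed the fall of Tug1 thus rests on the probe. Norad was lower by -0.43 in controls, where its next brightest probe was at 0.22. Among microRNA hosts, Dleu2 was higher by 0.35 (adjusted p = 0.0464) in controls and at 0.16 in furan livers. The call of Dleu2 in controls was kept in only 15 of 34 other settings. Mir22hg was lower by -0.42 in controls and higher by 0.33 in furan livers, where median centring gave -0.44. Mir22hg was the 1 lncRNA gene called in opposite directions in control and furan livers.

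**Figure D5:**
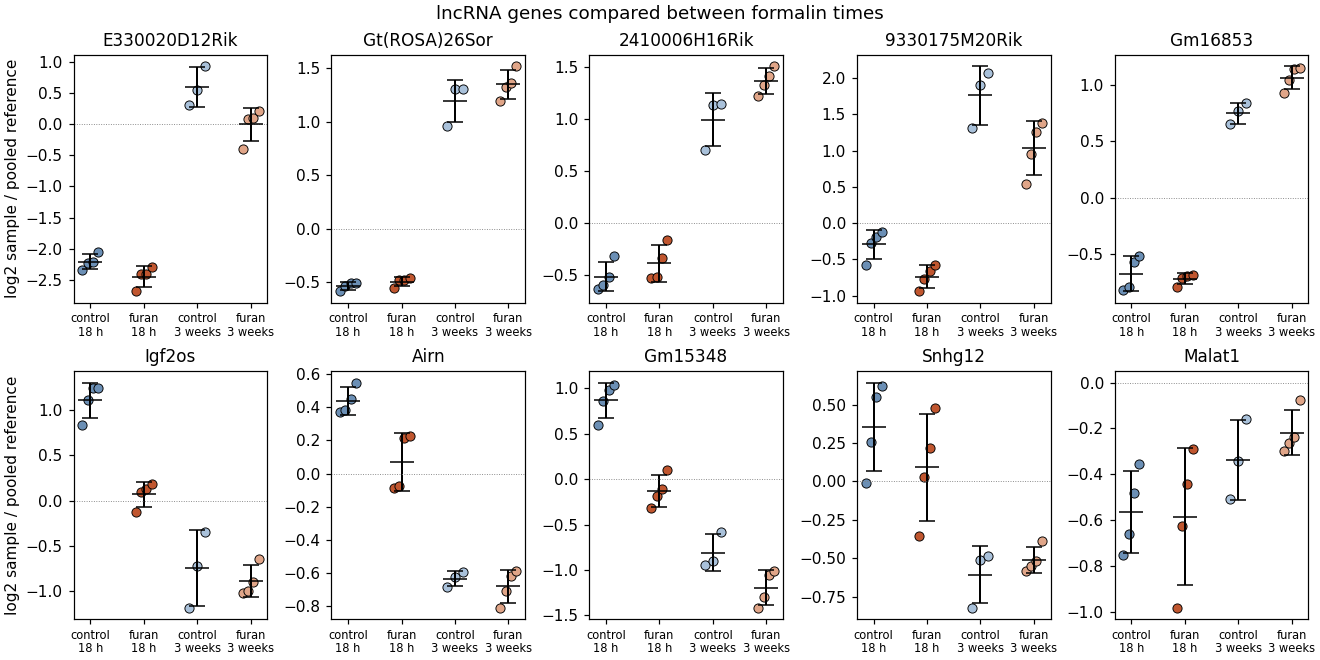
log2 ratio of each liver to the pooled reference for 10 lncRNA genes (points, one per sample), with mean and SD as bars, n = 4 per group and 3 for controls at 3 weeks. In the upper 5 genes both 3-week groups lie above both 18 h groups; Igf2os, Airn, Gm15348 and Snhg12 lie lower at 3 weeks, and Malat1 overlaps.

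By position in RefSeq, 132 of the 294 genes had no protein-coding overlap or shared start, 65 overlapped a coding gene on the other strand, and 31 had a coding start on the other strand within 1 kb. With furan at 18 h these classes gave 13 higher and 35 lower, 7 and 16, and 1 and 9. Over all genes tested 21.9% were higher and 26.6% lower. For 110 genes a coding neighbour was tested too, in 120 pairs. Both genes of a pair were called in 24 of them at 18 h, and 15 of the 24 had the same sign. Across these pairs Pearson's r of the log2 differences was 0.13 at 18 h, 0.21 for time in controls and 0.00 for time in furan livers; the points share arrays, and pairs are not independent replicates. Tug1 (-0.70) stood beside Morc2a at 0.11, and Nron, which overlaps Mvb12b, beside 0.03 for that gene, neither neighbour passing. Gm10638 overlapped Siah1a, which was higher by 0.40, and D7Ertd143e (-0.36) overlapped Nlrp12, lower by -0.83.

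Of 18 lncRNA genes with at least 2 kept probes, 13 had the same sign in the brightest and next brightest probe at 18 h, and 10 did in each time comparison. Where both probes were called, the sign was shared by 3 of 4 at 18 h, 5 of 6 for time in controls and 6 of 10 for time in furan livers. H19, Gas5 and Trp53cor1 were not analysed here, and Snhg5, Jpx and Mirt1 were on the array without passing the detection rule.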

How the data were processed

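Liver RNA of 4 groups was measured on 16 two-colour Agilent arrays (SurePrint G3 mouse design), with sample cDNA in Cy5 and the pooled reference in Cy3 and no dye swap. The deposited scanner files give spot intensity, made by the authors with Feature Extraction 11.0.1.1 per the file headers, together with a log10 ratio of Cy5 over Cy3 that Agilent's software had already background-subtracted and dye-normalized. The authors' deposited value table holds log2 ratios of sample over reference: set against the scanner values, its columns had slopes of 0.822 to 0.926 and r of 0.957 to 0.997 over 14375 bright probes, with column medians from -0.00919 to 0.0247; its normalization is not given in the sources used here.

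Median spot and median background intensities were corrected with normexp (offset 50) and normalized by loess within each array in limma 3.58.1 under R 4.3.3, with control spots at weight 0 and flagged spots left out (187 to 308 per array). Spots of a probe were averaged, the brightest kept probe stood for a gene, and arrays 2.1 and 2.2 of 1 control liver were averaged. Groups were compared with limma's moderated test with the slide as a term, and p-values were adjusted by Benjamini-Hochberg over all 22024 genes, with a threshold of 0.05. The fit was tested on simulated data. For arrays, the number of samples limits the precision. Since the labels speak of biological replicates without tying each sample to an animal, p-values measure the spread between these samples.

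The lncRNA genes and gene lists were chosen with earlier results of these data known. Genes were named by rule: the 10 largest called rises and falls per comparison (5 by p-value where few were called), and fixed genes such as Xist and Malat1. The settings tried were other background corrections, scalings, filters and probes, slides alone, a replicate block and leaving out each sample. Array symbols were matched to RefSeq by accession for 27235 probes; 28446 were not matched. The arrays are annotated on mm9 and the sequences come from RefSeq on GRCm38.p6, so no gene coordinates from one were set on the other. Figures were drawn with matplotlib 3.10.9.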

Additional observations from a re-analysis of the deposited data

Results flagged for a closer look

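In 7 of 231 groups of 4 samples of the named lncRNA genes, 1 sample stood apart from the other 3 beyond Dixon's 95% critical value, where chance alone marks about 1 group in 20. For 1600010M07Rik these were 18 h control 3, at a log2 ratio of 0.78 where the others lay at 0.57 to 0.59, and 3-week furan sample 44, at -0.78 where the others lay at -0.30 to -0.21. For 4930533B01Rik they were 18 h furan sample 43, at 0.57 against 0.25 to 0.30, and 3-week furan sample 44, at 1.76 against 0.89 to 0.96. The remaining samples were 3-week furan sample 43 for 9330133O14Rik, at -0.74 against -0.48 to -0.43, 18 h furan sample 44 for E130304I02Rik, at -0.47 against -0.14 to -0.13, and 18 h furan sample 44 for Mirt2, at 0.79 against 0.47 to 0.51.

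The furan difference at 3 weeks minus that at 18 h passed limma's test of the difference itself for 19 named genes. It was positive for Igf2os (0.89), A930005H10Rik (0.84), 1300002E11Rik (0.81), Mir22hg (0.75), A730056A06Rik (0.75), Rbakdn (0.73), B930025P03Rik (0.71), Gm13375 (0.65), 1700081H04Rik (0.63) and Gm15348 (0.61). It was negative for Gm10536 (-0.93), Nron (-0.80), Mir17hg (-0.80), 4933405E24Rik (-0.78), E130304I02Rik (-0.77), 8430431K14Rik (-0.75), Gm10768 (-0.74), Kcnq1ot1 (-0.74) and 4930444M15Rik (-0.58). For Mir17hg, 8430431K14Rik, Kcnq1ot1, B930025P03Rik and 1300002E11Rik no 3-week array was well above background, and for Nron, 8430431K14Rik and 4930444M15Rik no 18 h control array was, so the sizes given for these genes are not measured differences on both sides.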

How the results depend on the processing

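Of 7194 values of named genes under other settings, 6596 stayed on their side of the threshold, keeping the sign where called and otherwise moving by less than 1 SD of the replicates, so that values near 0 may have changed sign; 32 values turned sign where the main or the other setting called them. The single call of furan against control at 3 weeks was 3 with no background subtraction, 0 with Agilent's log ratios, 7 with median centring, 3 in the authors' values, 0 with the mean of a gene's probes, 0 with the next brightest probe, 0 and 4 on slides 1 and 2 alone, 3 with arrays 2.1 and 2.2 as separate samples, and 11 with all groups in the fit; leaving out 1 sample gave 0 to 11 (11 without control 4). The 21 calls of the difference between times were 40 with no background subtraction, 13 with Agilent's log ratios, 0 with the next brightest probe and 0 on either slide alone; leaving out 1 sample gave 13 (without 18 h control 4) to 30 (without 3-week control 4). For furan at 18 h, 5 of 18 genes were called with the next brightest probe, 42 on slide 2 alone and 20 with a 1.5-fold minimum, and leaving out 1 sample gave 80 to 104. For time in control and furan livers, the counts were 102 and 114 of 151 genes detected on 12 of 16 arrays, 9 and 12 of 18 with the next brightest probe, and 90 and 117 with a 1.5-fold minimum; leaving out 1 sample gave 135 to 160 and 169 to 184. The cause of these changes was not tested, beyond the fewer genes or samples that some settings use.

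Furan and control samples share no number, so no paired analysis was possible because of that within a formalin time. Across formalin times, same-numbered samples correlated by 0.000156 to 0.20, over 0.1 in 3 of 7 pairs, and 5 of 7 samples at 18 h correlated best with their own number, which is a hint of pairing from the data. Since the labels do not tie the numbers to animals and not every pair was over 0.1, the numbers were not taken as pairs. With the sample number as a replicate block the difference between times called 11 lncRNA genes, 3 more positive and 8 more negative at 3 weeks against 12 and 9 without it, and time in formalin called 108 in controls and 179 in furan livers.

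Signs turned under median centring for furan at 18 h in Malat1 (0.37), Neat1 (0.27) and Snhg6 (0.31). They turned for time in control livers in 1810053B23Rik (-0.39), Hnf4aos (-0.36), Peg13 (-0.0074), Snhg6 (-0.16) and Xist (-0.13). In furan livers they turned in 1810053B23Rik (-0.36), 2810410L24Rik (-0.059), Dancr (-0.52), Hnf4aos (-0.25), Malat1 (-0.44), Mir22hg (-0.44), Neat1 (-0.55), Peg13 (-0.25), Snhg16 (-0.015) and Snhg6 (-0.46). With the mean of kept probes, 1810053B23Rik was at -0.55 and -0.18 and 2810410L24Rik at -0.018 and -0.064 in control and furan livers. With the next brightest probe, Tug1 was at 0.31 for furan at 18 h, Airn at 0.29, 1810053B23Rik at -1.27, 2810410L24Rik at -0.76 and Norad at 0.22 for time in controls, and 9330133O14Rik at 0.38 (also with 12 of 16 arrays), 1810053B23Rik at -0.74, 2810410L24Rik at -0.87 and Airn at 0.39 for time in furan livers.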
